A study of Mus musculus with 6 samples.

Results

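The genes described here encode the pore-forming subunits of potassium channels that open with intracellular calcium or sodium, or with modest depolarization. They are Kcnma1 (the BK channel), Kcnn1, Kcnn2 and Kcnn3 (the SK channels), Kcnt1 and Kcnt2 (the sodium-activated channels Slack and Slick), and Kcnq3 and Kcnq5 (KCNQ channels). They were taken by name, as 8 of the 49568 gene names in the deposited values, and not for how they were expressed. Other pore genes of these families were not analysed here. RNA-seq was performed on neurons of the preBötzinger complex (preBötC), the brainstem site from which the rhythm of inspiration originates. All mice were neonatal Dbx1CreERT2; Rosa26tdTomato mice at postnatal day 2, of both sexes, whose dams had received tamoxifen during pregnancy. The Cre recombinase was expressed from the Dbx1 locus, and tdTomato therefore marked the Dbx1 lineage. The 3 Dbx1 samples held tdTomato-positive neurons, and the 3 non-Dbx1 samples held neuronal somata without fluorescence from mice of the same genotype. A non-Dbx1 sample is therefore a mixture defined by the absence of a label, which includes any Dbx1-derived neuron that did not recombine. Each sample pooled 15 neurons from 1 mouse, and the 6 samples came from 6 different mice.

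These channels all let potassium out of the cell and so oppose firing, but each reads a different signal. BK channels need calcium and depolarization together and shorten the spike. SK channels open with calcium alone, through calmodulin bound to the channel, and carry the slower afterhyperpolarization that spaces spikes. Slack and Slick open as sodium accumulates during a burst. KCNQ channels carry the M-current, which stays on below spike threshold and is closed when receptors coupled to Gq proteins deplete the membrane lipid that holds the channels open. Rhythmic bursting of preBötC neurons loads them with both calcium and sodium, so the calcium- and sodium-activated channels are candidates for ending or spacing a burst.

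The families meet in the part of the gene that encodes the potassium filter, a run of glycine, an aromatic residue and glycine in the lining of the pore. The coding sequence around this run is shown for 4 of the genes, because it shows how far the BK, SK and sodium-activated subunits resemble each other before their levels are set side by side. Each line gives 39 bases, 5′ to 3′ on the coding strand, from a single coding exon of GRCm38 with GENCODE vM21 transcript models, with the codons of the run in capitals.
Kcnma1, chr14:23528401-23528439, minus strand: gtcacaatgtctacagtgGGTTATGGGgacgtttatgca
Kcnn1, chr8:70850645-70850683, minus strand: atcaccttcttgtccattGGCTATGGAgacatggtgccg
Kcnt1, chr2:25894355-25894393, plus strand: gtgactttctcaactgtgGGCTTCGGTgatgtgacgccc
Kcnt2, chr1:140425266-140425304, plus strand: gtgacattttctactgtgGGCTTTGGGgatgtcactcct
The middle codon encodes tyrosine in Kcnma1 and Kcnn1 and phenylalanine in Kcnt1 and Kcnt2. Over the 39 bases, Kcnt1 and Kcnt2 were 79.5% identical. Between families the identity was 51.3% to 69.2%, with the highest value for Kcnma1 and Kcnt2.

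The values are RPKM, reads on a gene relative to its exon length and to the reads of the sample, as the authors deposited them. The spacing of the deposited values showed that between 6464675 and 9432958 reads per sample lay on genes. At this depth 3 reads on one of the 8 genes, the number used here as the detection floor, corresponded to 0.0140 to 0.0529 RPKM, which covers counting error only. Neuronal markers (Syn1, Snap25, Tubb3, Eno2, Rbfox3 and Map2) were non-zero in every sample and summed to 993 to 1708 RPKM. Markers of other cells were not even between the groups. The oligodendrocyte markers Mbp and Mog summed to 2.26 to 3.53 RPKM in the Dbx1 samples and 5.30 to 156 RPKM in the non-Dbx1 samples. Their highest sum was in non-Dbx1 sample 1, which also had the highest sum of 4 globin genes, 13946 RPKM against 89.6 to 1198 RPKM in the other samples. The 4 astrocyte markers summed to 13.9 to 18.5 RPKM in the Dbx1 and 19.2 to 31.0 RPKM in the non-Dbx1 samples, the 3 motor neuron markers to 0.191 to 8.58 and 2.80 to 25.2 RPKM, the 3 microglial markers to 0.202 to 2.97 and 0.0151 to 1.52 RPKM, and the 2 endothelial markers to 0.0141 to 0.507 and 0.0104 to 63.8 RPKM. Single markers did not always follow others of their list. Isl1 was at 0 in all samples but non-Dbx1 sample 3, where it was 13.3 RPKM. Slc5a7 was highest in non-Dbx1 sample 2, at 10.9 RPKM, and was 8.52 RPKM in Dbx1 sample 3, where Isl1 was 0. Cldn5 reached 63.7 RPKM in non-Dbx1 sample 2, where Pecam1, the other endothelial marker, was 0.0343 RPKM. Whether such cells were present, and what part they had in the values below, was not tested.

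All 8 channel genes were expressed in both groups, at modest levels, and none differed between Dbx1 and non-Dbx1 neurons beyond the spread between samples. Mean RPKM over the 6 samples ran from 1.58 for Kcnq5 to 5.65 for Kcnt1. These means lay above those of 55.5% to 75.7% of the 27067 genes with any reads. The genes differed in how evenly they were expressed from sample to sample. Kcnt1 varied by 1.84-fold between its lowest and highest sample. Kcnn3 varied by 113-fold, or by 9.34-fold without non-Dbx1 sample 1, where it had 3 reads. Kcnn1 was undetected in 1 sample. By within-group SD of log2(RPKM + 1), 13.9% of tested genes of like mean level varied less than Kcnt1. The share was 64.3% for Kcnn3 (SD 0.95, median of such genes 0.78) and 74.6% for Kcnn1 (1.09 and 0.77), the highest of the 8. The spread of Kcnn3 and Kcnn1 was thus not exceptional for their level. In such pools, fewer expressing cells and less RNA per cell cannot be told apart.

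**Figure D1:**
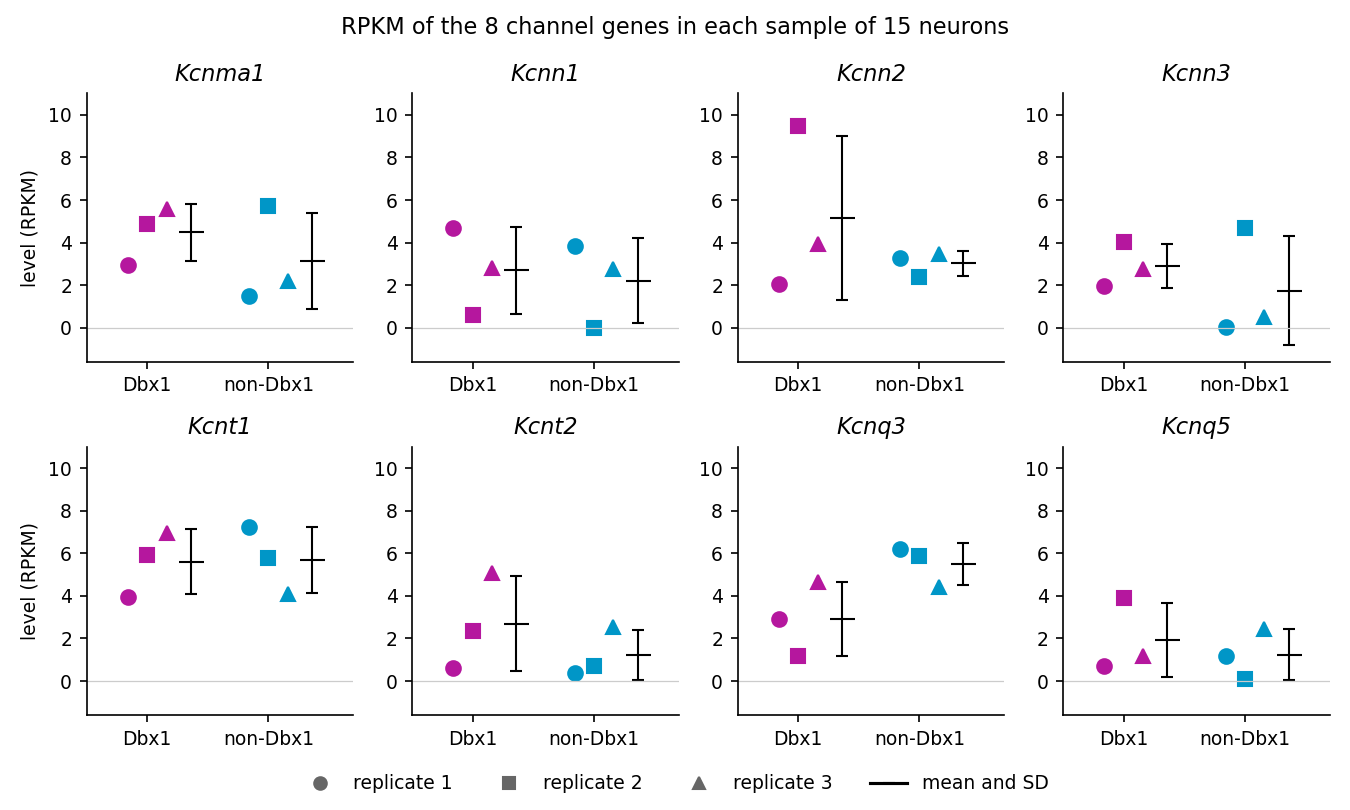
RPKM (y axis) of each channel gene in the 3 Dbx1 and 3 non-Dbx1 samples, with a symbol for each replicate and the group mean ± SD in black. The groups overlap for all 8 genes, and the points lie closest together for Kcnt1, between 3.93 and 7.22 RPKM.

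Kcnma1 encodes the pore of the BK channel and lies on the minus strand of chr14:23289431-24014491 (GRCm38, as for all positions here). It measured 2.96, 4.90 and 5.58 RPKM in Dbx1 samples 1 to 3, and 1.49, 5.70 and 2.19 RPKM in non-Dbx1 samples 1 to 3. The highest value belonged to non-Dbx1 sample 2, so the groups overlapped, although the other non-Dbx1 samples lay below all 3 Dbx1 samples. The reads behind these values numbered 150 to 759 per sample. Of the exon sequence of Kcnma1, 5.98% overlaps a gene on the opposite strand, and the authors counted reads without regard to strand, so reads from that overlap cannot be assigned to one gene. The same holds for 8.13% of Kcnn2, 3.08% of Kcnq5, 2.88% of Kcnn1 and 1.48% of Kcnt2.

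Kcnn1, which encodes SK1 (chr8:70842049-70863258, minus strand), measured 4.69, 0.591 and 2.82 RPKM in Dbx1 samples and 3.85, 0 and 2.78 RPKM in non-Dbx1 samples. It was low in 1 Dbx1 sample and had no read in non-Dbx1 sample 2, where 3 reads would have given 0.0400 RPKM, while the other 4 samples had 172 to 327 reads. A pool of 15 neurons samples few cells, so a missing transcript in 1 pool does not describe the population.

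Kcnn2 encodes SK2 and lies on the plus strand of chr18:45268860-45686024. It was detected in every sample, at 2.08, 9.47 and 3.93 RPKM in the Dbx1 and 3.28, 2.37 and 3.46 RPKM in the non-Dbx1 samples. Dbx1 sample 2, with 1039 reads, stood above all others, and Dbx1 sample 1 was the lowest, so that the Dbx1 samples lay on both sides of the non-Dbx1 samples. The SD was 3.85 RPKM in the Dbx1 group and 0.583 RPKM in the non-Dbx1 group (n = 3 each).

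Kcnn3, which encodes SK3 (chr3:89520164-89675132, plus strand), measured 1.98, 4.02 and 2.77 RPKM in Dbx1 samples. In non-Dbx1 samples it measured 0.0414, 4.69 and 0.502 RPKM. The Dbx1 samples lay between the extremes of the non-Dbx1 samples, which held both the highest value of the 6, with 449 reads, and the lowest, with 3 reads. The sample with 3 reads was non-Dbx1 sample 1, the sample with the highest globin sum and with 155 RPKM of Mbp, although Mog was 0.514 RPKM there and did not stand apart.

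Of the sodium-activated genes, Kcnt1 was the more even. Kcnt1, which encodes Slack (chr2:25863734-25918273, plus strand), measured 3.93, 5.91 and 6.94 RPKM in Dbx1 samples and 7.22, 5.76 and 4.10 RPKM in non-Dbx1 samples. The group means were nearly equal at 5.60 ± 1.53 and 5.69 ± 1.56 RPKM (SD, n = 3 each), with 708 to 1116 reads in each sample. Its within-group SD on the log2(RPKM + 1) scale was 0.35, against a median of 0.62 among 2893 tested genes within 0.5 of its mean log2 level, of which 13.9% varied less. Kcnt2, which encodes Slick (chr1:140246158-140612067, plus strand), measured 0.637, 2.37 and 5.07 RPKM in Dbx1 and 0.392, 0.703 and 2.56 RPKM in non-Dbx1 samples. Sample 3 was the highest of its group in both, and the groups overlapped. The within-group SD of Kcnt2 was 0.84, against a median of 0.78 among genes of like level, of which 55.1% varied less.

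Kcnq3, which encodes a subunit of the M-channel (chr15:65986387-66286642, minus strand), measured 2.90, 1.16 and 4.64 RPKM in Dbx1 samples and 6.22, 5.87 and 4.40 RPKM in non-Dbx1 samples. Only the highest Dbx1 sample and the lowest non-Dbx1 sample crossed, and the means were 2.90 ± 1.74 and 5.50 ± 0.964 RPKM (SD, n = 3 each). Kcnq5, whose product can form KCNQ channels alone or with that of Kcnq3 (chr1:21398403-21961942, minus strand), measured 0.710, 3.90 and 1.18 RPKM in Dbx1 samples and 1.16, 0.0764 and 2.46 RPKM in non-Dbx1 samples. The sample in which Kcnq3 was lowest, Dbx1 sample 2, was the one in which Kcnq5 was highest, and non-Dbx1 sample 2 had 756 reads of Kcnq3 but 11 of Kcnq5.

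Whether Dbx1 and non-Dbx1 neurons differ in these channels was tested with limma on log2(RPKM + 1), fitted over 17614 genes, each of which was non-zero in 3 or more samples. L2FC is the difference of the group means on that scale, positive where Dbx1 was higher, which understates the change of low genes. The FDR is the Benjamini-Hochberg adjusted p over all 17614 genes. All 8 genes entered the test, and 0 of 8 had an FDR under 0.1 in either direction, beside 0% of all genes tested for higher values in Dbx1 and 0.00568% for higher values in non-Dbx1 neurons. Likewise 0 of 8 had an unadjusted p under 0.05, beside 2.73% and 2.48% of all genes, and 0 of 8 had groups that did not overlap, beside 5.35% and 5.24%. At FDR under 0.1 the study's own test, DESeq2 on read counts, called genes in both directions. Among them were Hif1a and Syt10, higher in Dbx1 neurons, and Gata2 and Htr1a, higher in non-Dbx1 neurons. The low counts in limma therefore do not show that the groups are alike. Among the 8 channel genes the L2FC was positive for 6 and negative for 2, with a median of 0.41. Over all genes tested it was positive for 8953 and negative for 8661, with a median of 0.0089. Whether the 8 genes were shifted as a set was not tested.

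The genes with the largest differences had wide intervals. Kcnq3 had an L2FC of -0.83 (SE 0.54, 95% interval -2.07 to 0.41), with FDR = 0.936 in limma. Kcnn3 had an L2FC of 0.89 (SE 0.73, 95% interval -0.78 to 2.56), with FDR = 0.949 in limma, and this value became 0.39 without non-Dbx1 sample 1 and 1.62 without non-Dbx1 sample 2. The L2FC was 0.66 for Kcnt2, 0.51 for Kcnma1, 0.43 for Kcnn2, 0.39 for Kcnq5 and 0.31 for Kcnn1, with FDR from 0.952 to 0.980 in limma. Kcnt1 had the narrowest interval around an L2FC of -0.02 (95% interval -1.02 to 0.98, limma FDR = 0.998). Exact two-sided permutation tests of the 6 values gave p from 0.20 for Kcnq3 to 0.80 for Kcnt1, where 3 samples against 3 cannot go below p = 0.10. A single library decided the sign for several genes. The L2FC of Kcnn1 became -0.10 without Dbx1 sample 1 and -0.39 without non-Dbx1 sample 2. That of Kcnn2 became -0.04 without Dbx1 sample 2, that of Kcnq5 became -0.05 without Dbx1 sample 2 or non-Dbx1 sample 2, and that of Kcnt1 became 0.17 without Dbx1 sample 1 and 0.14 without non-Dbx1 sample 1.

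**Figure D2:**
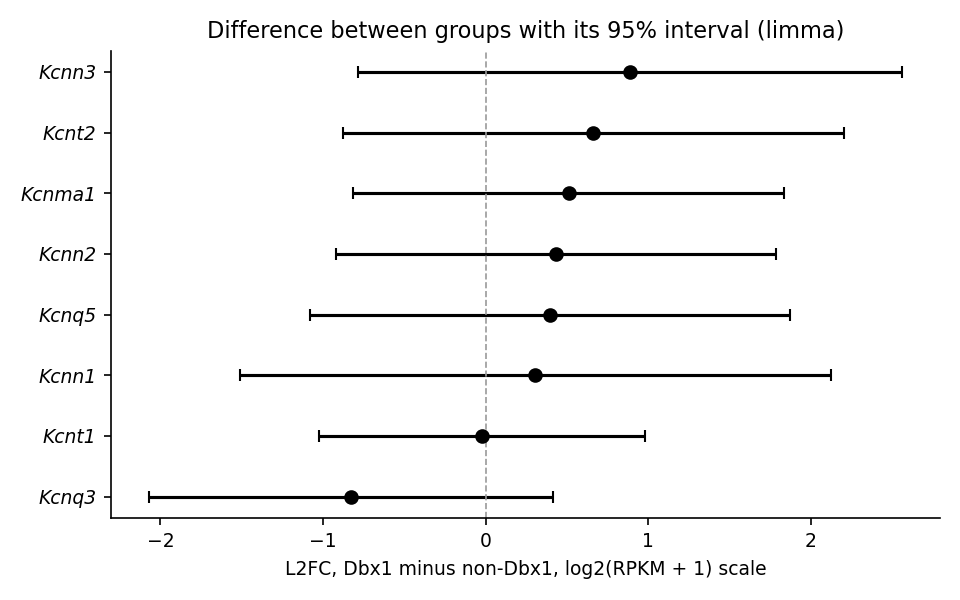
L2FC between Dbx1 and non-Dbx1 neurons (x axis, log2(RPKM + 1) scale) for the 8 channel genes (y axis), with bars for the 95% interval from limma. Every interval crosses 0, from Kcnq3 at -0.83 to Kcnn3 at 0.89.

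Among the SK genes, the leading subunit changed from sample to sample. Kcnn1 made up the largest share of SK RPKM in Dbx1 sample 1 (53.6%) and non-Dbx1 sample 1 (53.7%), Kcnn2 in Dbx1 samples 2 (67.3%) and 3 (41.2%) and non-Dbx1 sample 3 (51.3%), and Kcnn3 in non-Dbx1 sample 2 (66.4%). Each SK gene was thus the main one in at least 1 sample, and Kcnn1 and Kcnn2 led in samples of both groups. Kcnt1 led the sodium-activated pair in all 6 samples, with 57.8% to 94.9% of its RPKM. Kcnq3 led the KCNQ pair in 5 samples, with 64.2% to 98.7%, and Kcnq5 made up 77.0% in Dbx1 sample 2. With reads divided by the merged exon length described below, Kcnq5 also led in non-Dbx1 sample 3, with 54.4%, and the leading SK and sodium-activated genes were the same in all 6 samples.

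The summed RPKM of the SK genes was higher in each Dbx1 sample than in any non-Dbx1 sample. The 3 SK genes together reached 7.17, 7.06 and 6.75 RPKM in non-Dbx1 samples 1 to 3, although Kcnn1 ranged from 0 to 3.85 and Kcnn3 from 0.0414 to 4.69 RPKM among them. In Dbx1 samples 1 to 3 the SK sum was 8.75, 14.1 and 9.52 RPKM, so the lowest Dbx1 sum was above the highest non-Dbx1 sum. The KCNQ pair summed to 3.61, 5.06 and 5.82 RPKM in Dbx1 and 7.38, 5.95 and 6.86 RPKM in non-Dbx1 samples, again without overlap but with the non-Dbx1 samples higher. The sodium-activated pair overlapped, at 4.57, 8.28 and 12.01 RPKM against 7.61, 6.46 and 6.66 RPKM. These sums were formed with the values of their members known, weigh each gene by the length the authors used, and carry no test. Among single genes tested, 5.35% had groups that did not overlap with Dbx1 higher, and 5.24% with non-Dbx1 higher. That share was not computed for sums of genes, and 3 samples against 3 cannot go below p = 0.10 in an exact permutation test. With reads divided instead by the merged exon length, the SK sums remained apart, at 15.1 to 23.9 in Dbx1 and 9.65 to 13.8 in non-Dbx1 samples, so that the narrow range of the non-Dbx1 SK sums was not kept, and the KCNQ sums overlapped, at 4.52 to 9.72 and 6.17 to 9.88. The oligodendrocyte, globin and astrocyte marker sums were each also higher in all 3 non-Dbx1 samples than in any Dbx1 sample, and their part in the sums was not tested. Not every marker followed its sum, since Mog, Aldh1l1 and Aqp4 overlapped between the groups and Gfap was higher in the Dbx1 samples, at 0.271 to 3.96 RPKM against 0 to 0.126 RPKM.

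**Figure D3:**
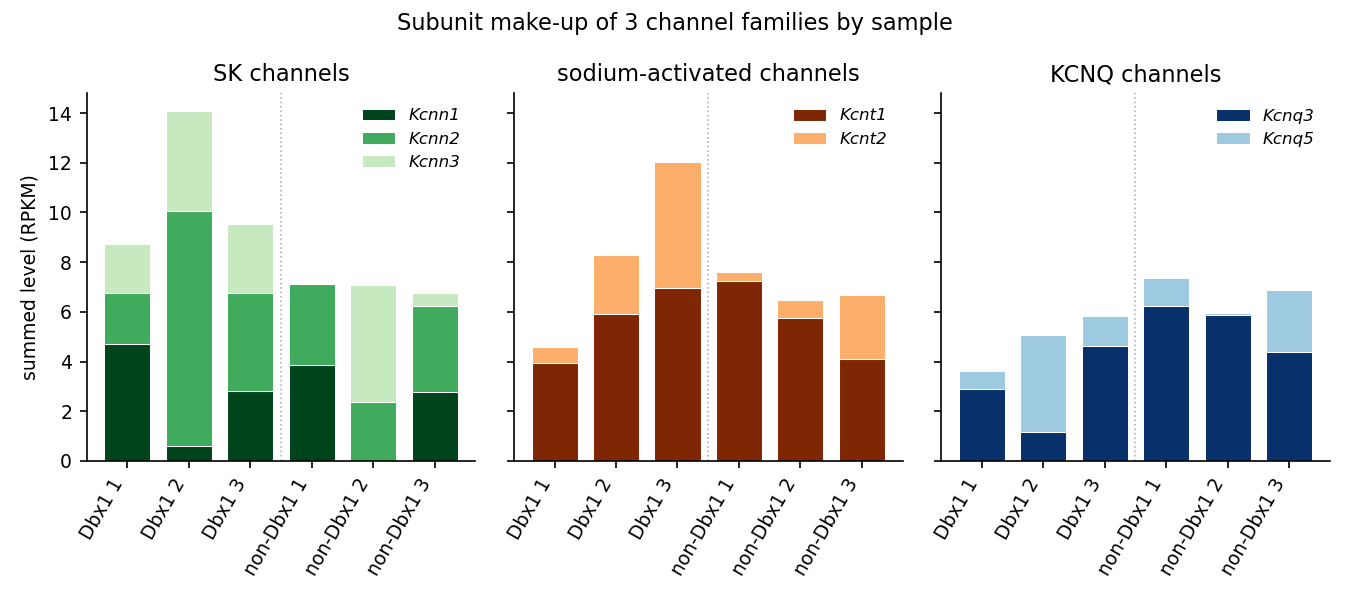
Summed RPKM (y axis) of the SK genes, the sodium-activated genes and the KCNQ genes in each sample (x axis), with a shade for each gene and a dotted line between the groups. The SK sums are 6.75 to 7.17 RPKM in the non-Dbx1 samples and 8.75 to 14.1 RPKM in the Dbx1 samples, while the leading SK gene differs between samples. The sums carry no test.

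Because RPKM is per length, the levels of the genes could also be set side by side within a sample. By mean RPKM over the 6 samples the order was Kcnt1 (5.65), Kcnq3 (4.20), Kcnn2 (4.10), Kcnma1 (3.80), Kcnn1 (2.46), Kcnn3 (2.33), Kcnt2 (1.95) and Kcnq5 (1.58). Kcnt1 was the highest or second highest of the 8 genes in all 6 samples. Differences within samples on the log2(RPKM + 1) scale were tested for all 28 pairs by an exact two-sided sign-change test, whose smallest p with 6 samples is 0.031. The order was the same in all 6 samples for 6 pairs, which were Kcnt1 above Kcnma1, Kcnn3, Kcnt2 and Kcnq5, Kcnma1 above Kcnn3, and Kcnn2 above Kcnq5. After Benjamini-Hochberg adjustment over the 28 pairs these had p = 0.146 (exact sign-change test), so 0 pairs passed 0.1, and no neighbours in the order were separated.

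The order between genes depends on the exon length by which reads were divided. The lengths implied by the deposited values were 22643 bases for Kcnt1, 14570 for Kcnn2, 8766 for Kcnn1 and 16833 for Kcnq5, which is 2.38, 1.95, 1.91 and 2.19 times the length of the merged exons in GENCODE vM21. For Kcnt2 the ratio was 1.37, and for Kcnma1, Kcnn3 and Kcnq3 it was 0.917, 1.07 and 1.02. For Kcnn3 the implied length, 11198 bases, equalled the sum of all distinct annotated exons, in which overlapping exons are counted more than once. The implied lengths of the other channel genes did not equal that sum. They were, for example, 22643 against 19244 bases for Kcnt1 and 15570 against 23230 bases for Kcnma1. With reads per merged exon length, the mean level was 13.5 for Kcnt1, 7.997 for Kcnn2, 4.69 for Kcnn1, 4.30 for Kcnq3, 3.49 for Kcnma1, 3.46 for Kcnq5, 2.69 for Kcnt2 and 2.5 for Kcnn3, in the same unit. Kcnn2 then stood above Kcnq3, and 9 of the 28 pairs had an adjusted p of 0.0972 (exact sign-change test), namely Kcnt1 above Kcnma1, Kcnn1, Kcnn3, Kcnt2, Kcnq3 and Kcnq5, Kcnn2 above Kcnt2 and Kcnq5, and Kcnma1 above Kcnn3. The 6 pairs named before are among these 9, with the same unadjusted p of 0.031, the smallest possible. At that p the adjusted value depends on how many pairs share it, and was 0.146 with 6 pairs and 0.0972 with 9 (exact sign-change test). Kcnt1 had the highest mean with either length. The choice of length does not enter the ratio of RPKM between groups. It does enter the L2FC on the log2(RPKM + 1) scale, through the pseudocount, and the L2FC was not recalculated with merged exon lengths. The length also enters the within-group SD and the choice of genes of like level, so the ranking of Kcnt1 as even depends on it. That ranking was not recalculated either.

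**Figure D4:**
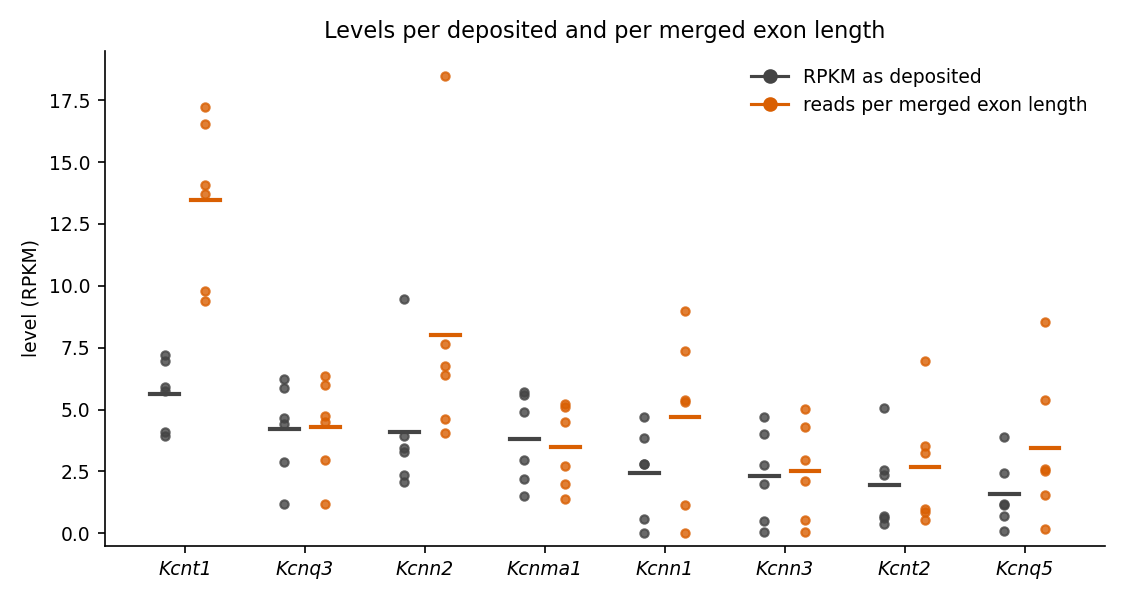
Level of each gene in the 6 samples (points) with its mean (line), as deposited RPKM (grey) and with the recovered reads divided by the merged exon length (orange), in RPKM on the y axis. Kcnt1 has the highest mean on both scales, 5.65 and 13.5, and Kcnn2 moves from 4.10 to 7.997.

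Of the 28 pairs of channel genes, Kcnma1 and Kcnn3 varied most closely together. Over the 6 samples their log2(RPKM + 1) values had Pearson r = 0.956 (exact permutation p = 0.00417, adjusted over 28 pairs 0.117) and Spearman rho = 0.943 (exact permutation p = 0.0167, adjusted 0.467). Without non-Dbx1 samples 1 and 3, the samples farthest from the median of Kcnma1, r was 0.773. The correlation of deviations from the group means was 0.943. Kcnn2 and Kcnq5 followed with r = 0.837 (exact permutation p = 0.0347, adjusted 0.486). No pair passed adjustment, and r was below 0 for 13 of the 28 pairs.

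For each channel gene, the gene with the most similar profile over the 6 samples was sought among 7055 tested genes with a mean of at least 5 RPKM, by Pearson r on the log2(RPKM + 1) scale. It was Mkrn3 for Kcnma1 (r = 0.981), Cdc42ep4 for Kcnn1 (0.994), Keap1 for Kcnn2 (0.942), Tfcp2 for Kcnn3 (0.989), Trim2 for Kcnt1 (0.995), RP23-433H22.3 for Kcnt2 (0.986), Senp3 for Kcnq3 (0.986) and Btbd1 for Kcnq5 (0.977). With 6 samples and so many candidates high values occur widely, and up to 34 genes exceeded r = 0.95 for a single channel gene.

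The partners of these channels were examined as 4 lists. None of the 32 genes on them, of which 24 entered the test, had a limma FDR under 0.1 or an unadjusted limma p under 0.05. Beta and gamma subunits set the calcium sensitivity and kinetics of BK channels. Of 8 such genes, 4 were tested, with a median L2FC of -0.06 (range -0.16 to 0.13). Kcnmb4, the main neuronal beta subunit, was the most abundant, at 1.65, 4.13 and 1.14 RPKM in Dbx1 and 3.34, 1.62 and 2.40 RPKM in non-Dbx1 samples, which overlapped. Kcnmb2, whose product inactivates BK channels, averaged 0.873 and 0.972 RPKM, and the gamma subunit gene Lrrc55 averaged 0.649 and 0.963 RPKM. Kcnmb1, Lrrc38 and Lrrc52 were at 0 in all 6 samples, and Lrrc26 was at 0 in the 3 Dbx1 samples and 1 non-Dbx1 sample.

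SK channels are complexes with calmodulin, casein kinase and protein phosphatase subunits. All 8 genes on that list were tested, with a median L2FC of 0.0062 and a range from -0.18 to 0.25. The calmodulin genes Calm2 and Calm3 were the most abundant of these, at 644 ± 165 and 183 ± 40.5 RPKM in Dbx1 and 596 ± 75.3 and 204 ± 9.15 RPKM in non-Dbx1 samples (SD, n = 3 each). Ppp2r1a, the scaffold of protein phosphatase 2A, averaged 203 and 180 RPKM. These 3 partners were far more abundant per length than the SK genes themselves, none of which exceeded 9.47 RPKM.

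KCNQ channels are anchored, modified and closed by a further set of proteins. Of 15 genes for KCNE subunits, anchors, Gq proteins, phospholipases and lipid kinases, 11 were tested, with a median L2FC of 0.23 and a range from -0.33 to 1.23. The most abundant were Gna11 and Gnaq, which encode the G protein subunits through which receptors close KCNQ channels, and the lipid kinase gene Pip5k1c. Gnaq measured 18.8, 19.8 and 19.3 RPKM in Dbx1 and 25.6, 23.2 and 22.8 RPKM in non-Dbx1 samples, and was the only 1 of the 24 tested partners whose groups did not overlap, beside 5.24% of all genes in this direction. Its L2FC was -0.29 (SE 0.24) with FDR = 0.949 in limma, and the exact permutation p was 0.10, the smallest possible. Gna11 averaged 44.3 and 35.6 RPKM, and Pip5k1c 21.0 and 18.1 RPKM, in Dbx1 and non-Dbx1 samples. Of the KCNE genes, Kcne5 was non-zero in all 6 samples. It averaged 15.0 and 17.9 RPKM in Dbx1 and non-Dbx1 samples, which overlapped. Kcne2, Kcne3 and Kcne4 were at 0 in all 6 samples, and Kcne1 was non-zero in 1 non-Dbx1 sample. Fmr1, whose product FMRP binds Slack, measured 1.98, 2.65 and 6.70 RPKM in Dbx1 and 2.08, 1.46 and 2.10 RPKM in non-Dbx1 samples, with an L2FC of 0.61 (SE 0.59) and FDR = 0.951 in limma.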

How the data were processed

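RNA from 3 Dbx1 and 3 non-Dbx1 samples of 15 neurons was amplified with SMART-Seq, made into libraries with Nextera kits and sequenced. Per the submitters' processing notes and the study's methods, reads were aligned to mm10 with TopHat2, handled with SAMtools and counted per gene with HTSeq without strand. The authors deposited 1 RPKM value per gene and sample, computed from an Ensembl exon length (release not given in the sources used here), without scaling between samples. The authors tested counts with DESeq2, whereas the main test here used the RPKM values. Reads recovered from the RPKM values gave the read numbers, the voom alternative and the levels per merged exon length.

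Reads on genes were recovered from the spacing of RPKM values, as the smallest whole numbers that fit within 0.02 of a read, for 27066 of 27067 non-zero genes. Positions and merged exon lengths came from GENCODE vM21 on GRCm38, which matched 47214 of 49568 names. Kcne5 was read under its older symbol, Kcne1l. The 4 rows with repeated date-like names were kept separate.

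Groups were compared with limma 3.58.1 (lmFit, eBayes with trend, two-sided) in R 4.3.3 on log2(RPKM + 1), pseudocount 1, with a Benjamini-Hochberg threshold of 0.1, after a test on simulated data. Permutation and sign-change tests were exact and two-sided, run in Python (3.11.15) using scipy 1.17.1, numpy 2.4.6 and pandas 2.3.3, with plots by matplotlib 3.10.9. The alternatives were a pseudocount of 0.1, a looser filter (any non-zero sample) and a stricter one (3 samples reaching 1 RPKM), scaling by size factors or quantiles, no mean-variance trend, the replicate number as a block, voom on recovered reads (at least 10 in at least 3 samples), the log2 ratio of group means, and each sample left out. Merged exon lengths were an alternative for the level pairs only. All 8 channel genes are named, with the 3 most abundant genes of each partner list and any with unadjusted p under 0.05. The groups of Gnaq and the level of Kcne5 were also described after their values were seen, as were the family sums. The channel genes and lists were chosen with earlier results of these data known. Some genes of the partner and marker lists and some sequences are not reported here.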

Additional observations from a re-analysis of the deposited data

How the results depend on the processing

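The count of channel genes past the threshold was 0 in each direction under every alternative run. The L2FC of a channel gene had the same sign in 112 of 120 recalculations, and the lowest FDR of any was 0.784, where the 8 log2 ratios of group means carry no test. The 8 sign changes were those of Kcnn1 (-0.10 without Dbx1 sample 1, -0.39 without non-Dbx1 sample 2), Kcnn2 (-0.042 without Dbx1 sample 2), Kcnq5 (-0.053 without Dbx1 sample 2 and without non-Dbx1 sample 2) and Kcnt1 (0.17 without Dbx1 sample 1, 0.14 without non-Dbx1 sample 1, 0.00041 with quantile normalization). With each sample left out, the L2FC ranged from -0.39 to 0.82 for Kcnn1, -0.042 to 0.84 for Kcnn2, -0.053 to 0.79 for Kcnq5 and -0.20 to 0.17 for Kcnt1. Under all alternatives the range was -1.15 to -0.46 for Kcnq3, 0.21 to 0.93 for Kcnma1, 0.39 to 2.29 for Kcnn3 and 0.21 to 1.15 for Kcnt2, and the L2FC of Kcnn1 reached 2.39 and that of Kcnq5 1.28. Over all genes, 0 were called higher in Dbx1 and 1 in non-Dbx1 neurons. The second count became 0 with a pseudocount of 0.1, with genes non-zero in at least 1 sample, with voom and with the replicate block, and 3 without the mean-variance trend. Leaving out each sample gave 0 to 1 calls in each direction, with 1 call higher in Dbx1 and 0 higher in non-Dbx1 without non-Dbx1 sample 2, and 0 higher in non-Dbx1 without non-Dbx1 sample 3. The replicate numbers did not pair the samples, which came from different mice, and the deviations of same-numbered samples correlated at -0.11 to 0.02. Level pairs past the threshold went from 0 to 9 with merged exon lengths. The pairs at the smallest possible p rose from 6 to 9, which by itself brought their adjusted value under 0.1. The cause of the other changes was not tested. With 3 samples of 15 neurons per group, the 95% intervals of the L2FC were 2.01 to 3.63 wide.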
